A study of Caenorhabditis elegans with 3 samples.

Results

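The Hox genes and the caudal gene of the nematode Caenorhabditis elegans encode homeodomain transcription factors, and they were taken here as the 7 symbols ceh-13, lin-39, mab-5, egl-5, php-3, nob-1 and pal-1 in the annotation of the array. All 7 were measured, each by 1 probe, among 15168 genes with a probe of their own. The study hybridised RNA of early L4 hermaphrodites against a mixed wild-type RNA pool (the reference) on 2-colour DNA microarrays. It held 1 group of 3 worm preparations, 1 per array; channel 2 carried the early L4 RNA and channel 1 the reference. L4 larvae molt once more to become adults. The labels call only the reference wild type, and what went into the mixture is not stated. The sources used here give no strain, culture temperature or age in hours.

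Hox genes give cells their position along the head-to-tail axis, and in C. elegans they act in small groups of cells as well as in broad body regions. ceh-13 is the labial-like gene of the anterior. lin-39 acts in the midbody, where it keeps the vulval precursor cells competent, and mab-5 acts behind it in the posterior body. egl-5, php-3 and nob-1 are of the Abdominal-B class of the tail, and nob-1 and php-3 pattern the posterior of the embryo. pal-1 is the caudal homologue. Its mother-supplied RNA is held untranslated in oocytes and translated in posterior cells of the embryo, where PAL-1 specifies the C lineage, and the gene is also transcribed later.

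The deposited values were log2 ratios of the channels, centred here on the median of each array. The labels leave the direction of the ratio unstated. A positive value was taken to mean more RNA in early L4, a likely reading, since each description names early L4 first and the reference second and the layout is common to all 3 arrays. "Higher" and "lower" rest on that reading. Of 15159 genes tested, 22.7% passed an adjusted p of 0.05 (limma, Benjamini-Hochberg), with 12.6% higher and 10.1% lower. Spot brightness was not used here, so how far each spot stood above background is unknown. Hermaphrodites make sperm in the larva and oocytes later. Of 15 sperm genes 11 rose, with a list median of 2.31 on the log2 scale, and 12 of 14 oocyte and eggshell genes fell, with a median of -2.18. The sperm genes that rose ran from spe-9 at 0.95 ± 0.19, ssp-19 and msp-56 up to msp-64, spch-2 and the sperm chromatin gene spch-3 at 3.45 ± 0.71 (SD, n = 3). The oocyte genes that fell ran from oma-1 at -0.92 ± 0.28, lin-41 and cbd-1 down to egg-2, perm-4 and the eggshell gene perm-2 at -4.18 ± 0.35. The calls of spe-9 and oma-1 were lost without preparation 2 or 3. Of 9 genes of the male tail and male neurons 0 passed in limma (median 0.04), and 0 had an unadjusted p under 0.05. The 8 genes of vulva, uterus and late larva had a median of 0.13, and 2 rose, the period-like timing gene lin-42 at 1.33 ± 0.76 and the cuticle collagen bli-1 at 4.94 ± 1.61 (SD, n = 3).

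Of the 7 genes, pal-1 was lower in early L4 worms than in the reference, and none of the 6 Hox genes passed the test in either direction. That is 1 lower and 0 higher of 7, against 22.7% of all genes. The Hox genes had mean log2 ratios between -0.44 and 0.15, and 0 of 6 had an unadjusted p under 0.05. Their median was -0.27, beside -0.01 over all genes tested. The limma 95% intervals of all 6 Hox means lay between -0.99 and 0.85 on the log2 scale, inside a 2-fold difference either way. Such intervals borrow spread from all genes (7.59 prior against 2 residual degrees of freedom). The lower end for ceh-13 was close to 2-fold. lin-39 had an SD of 0.87, above the prior SD of 0.41, so its own spread alone would give a wider interval. These intervals were therefore not taken to exclude a 2-fold difference for every Hox gene.

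**Figure D1:**
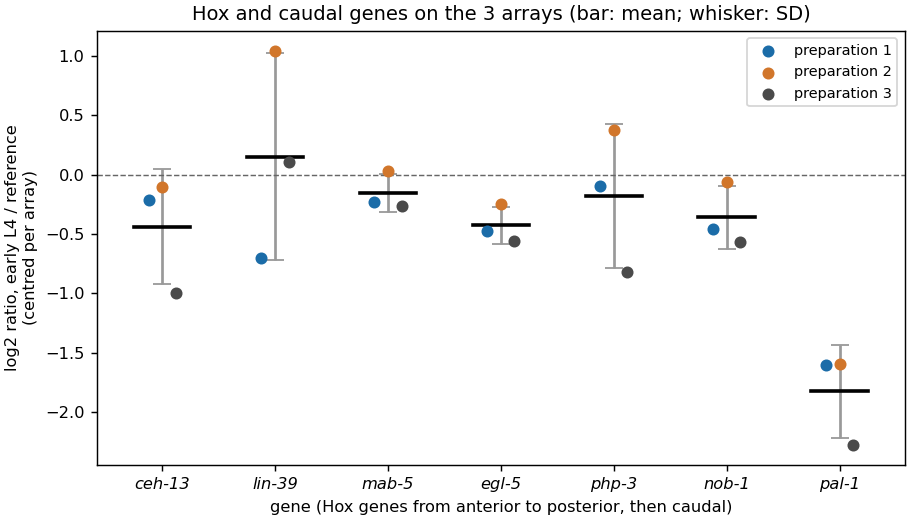
Centred log2 ratios (early L4 over reference) of the 7 genes on the 3 arrays. Points are single preparations, black bars the mean and whiskers the SD over the arrays. All pal-1 values lie at or below -1.59, under every value of the Hox genes, the lowest of which is -0.996 for ceh-13.

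pal-1 (C38D4.6) had log2 ratios of -1.60, -1.59 and -2.28 for preparations 1, 2 and 3. The first and second preparations were nearly equal, the third was lower, and all lay far below 0. The mean was -1.82 ± 0.39 (SD, n = 3), a 3.54-fold lower ratio with a 95% interval of 2.46 to 5.09, and it passed in limma with an adjusted p of 0.000609. With the sign read as above, pal-1 ranked 231st from the bottom of the 15159 genes by its mean, and on the single arrays it stood at percentile 4.01, 1.98 and 1.13. With the sign turned, it would stand as far from the top. The worms were measured whole, so fewer cells with pal-1 RNA and less of it per cell cannot be told apart. The list of oocyte and eggshell genes was also low, with medians of -1.63, -2.03 and -2.07 on the arrays. Its median was lower for preparation 2 than for 1 and nearly equal for 2 and 3, unlike pal-1. A list of 7 RNA-binding regulators of oocyte and embryo had medians of -1.55, -1.42 and -1.78, lowest for preparation 3 like pal-1. The 9 early embryo genes had medians of 0.19, 0.04 and -0.0015 on the same arrays. The part of oocyte RNA, or of embryo RNA, in the pal-1 ratio was not tested.

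ceh-13 (R13A5.5), the anterior gene, had log2 ratios of -0.21, -0.10 and -0.996. The first pair of preparations lay near 0 and the third well below it. Its mean of -0.44 ± 0.49 (SD, n = 3) was the lowest of the Hox genes and did not pass in limma (adjusted p = 0.247). Without preparation 3 the mean was -0.16.

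lin-39 (C07H6.7), the gene of the vulval precursor cells, had log2 ratios of -0.70, 1.04 and 0.11. It was the least reproducible of the 7, being low for preparation 1 and high for preparation 2, and its values lay on both sides of 0. The mean was 0.15 ± 0.87 (SD, n = 3; limma adjusted p = 0.772). Its SD was larger than that of 95.7% of the 15128 genes measured on all arrays, whose median SD was 0.36. Leaving out preparation 2 turned the mean to -0.29, and leaving out preparation 1 gave 0.58, neither past the threshold.

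mab-5 (C08C3.3), which directs the backward migration of a neuroblast on the left side, had log2 ratios of -0.23, 0.03 and -0.26. All 3 were close to 0, with a mean of -0.15 ± 0.16 (SD, n = 3; limma adjusted p = 0.664). Its 95% interval was -0.63 to 0.33.

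Of the Abdominal-B class, egl-5 (C08C3.1) was the most even, with log2 ratios of -0.48, -0.25 and -0.56. All arrays put this gene of the tail and of the migrating egg-laying neurons below 0, and the mean of -0.43 ± 0.16 (SD, n = 3) had the smallest adjusted p of the Hox genes, 0.192 in limma. The SDs of egl-5 and mab-5 were larger than those of only 13.9% and 14.2% of genes. nob-1 (Y75B8A.2) likewise lay below 0 on each array, with -0.45, -0.06 and -0.57 and a mean of -0.36 ± 0.27 (limma adjusted p = 0.288). php-3 (Y75B8A.1), its neighbour and close relative, scattered more, with -0.09, 0.38 and -0.82 and a mean of -0.18 ± 0.61 (adjusted p = 0.681). Without preparation 3 the php-3 mean turned to 0.14.

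**Figure D2:**
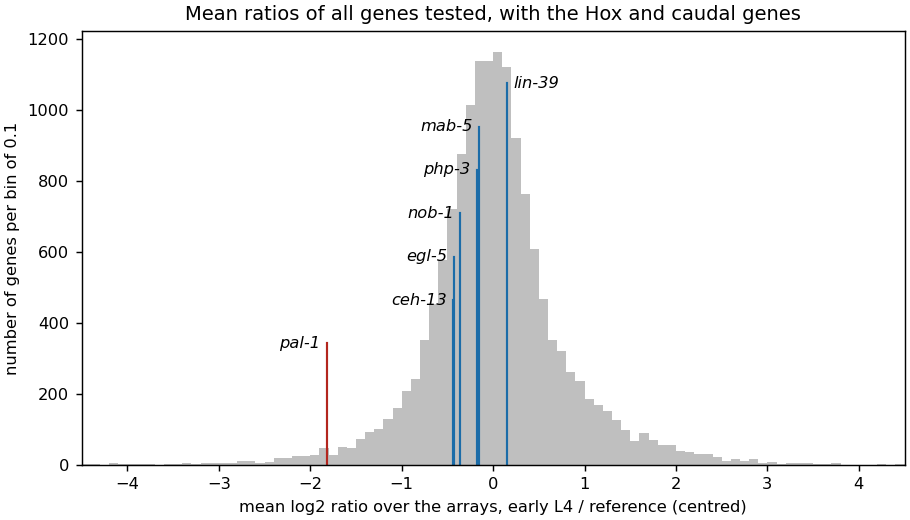
Histogram of the mean log2 ratio (early L4 over reference, centred) of the 15159 genes tested, in bins of 0.1, with the 7 genes marked by vertical lines whose heights differ only to keep the names apart. The Hox genes (blue) fall in the body of the distribution between -0.44 and 0.15, and pal-1 (red) lies in its lower tail at -1.82.

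In order of mean log2 ratio the genes ran pal-1, ceh-13, egl-5, nob-1, php-3, mab-5 and lin-39. Ranked this way, only the step between ceh-13 and pal-1 was larger than its own spread, with ceh-13 above pal-1 by 1.39 ± 0.10 (SD of the paired differences, n = 3). The other 5 steps, between 0.01 and 0.30, were smaller than the SD of their paired differences, which lay between 0.11 and 0.74. pal-1 was below each of the 6 Hox genes on all 3 arrays, with mean differences between -1.39 (pal-1 minus ceh-13) and -1.97 (pal-1 minus lin-39). An exact sign-flip permutation test gave p = 0.25 for each of these 6 differences (two-sided; also 0.25 after Benjamini-Hochberg over 6), which is the smallest p that 3 arrays allow. These are differences between ratios to the same reference and do not compare the amounts of the RNAs.

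Most of these genes were high and low on the same arrays. All 7 genes had their highest centred ratio on the array of preparation 2, where 32.8% of all genes did, and 6 of 7 had their lowest on that of preparation 3, again against 32.8%; lin-39, lowest for preparation 1, was the exception. The first count depended on scaling, with 5 of 7 for the ratios as deposited (26.1% of all genes) and 6 of 7 after quantile normalization (27.5%). The second count was 6 under all 3 scalings. The median of the Hox genes was -0.34, -0.01 and -0.56 for preparations 1, 2 and 3. Each preparation had its own array, so preparation and hybridisation cannot be told apart. Genes on 1 array share both, so these counts describe the arrays and were given no test.

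All 7 genes lie on chromosome III in the assembly WBcel235, 6 of them as the pairs lin-39 with ceh-13, mab-5 with egl-5, and php-3 with nob-1. No coordinates are given, since the labels name no genome build. Within pairs, mab-5 exceeded egl-5 by 0.25, 0.28 and 0.30 on the arrays, a difference of 0.27 ± 0.03 (SD, n = 3) that was nearly constant. The exact sign-flip p was 0.25, the smallest possible, and 0.5 after Benjamini-Hochberg over the 3 pairs. ceh-13 minus lin-39 was 0.49, -1.14 and -1.10, with a mean of -0.59 ± 0.93 and no common sign. php-3 minus nob-1 was 0.36, 0.44 and -0.25, with a mean of 0.18 ± 0.38, again of mixed sign (exact sign-flip p = 0.5 for each of these pairs, also 0.5 adjusted).

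The protein-coding genes beside and between them had ratios of their own. Of 9 such neighbours, all measured, 4 rose and 1 fell, beside 12.6% higher and 10.1% lower among all genes tested. cyk-7 (C08C3.4), a gene of cell division that lies between mab-5 and egl-5, rose with 0.95 ± 0.15 (SD, n = 3; limma adjusted p = 0.0108), while both Hox genes around it had negative means. lgc-12 (R13A5.4), a ligand-gated ion channel gene next to ceh-13, rose with 1.61 ± 0.76 (adjusted p = 0.00359 in limma). egl-45 (C27D11.1), of a translation initiation factor, rose beside egl-5 with values of -0.03, 1.84 and 1.43 and a mean of 1.08 (limma adjusted p = 0.0432), but did not pass without preparation 2 (mean 0.70) or 3 (mean 0.91), nor with trend and robust settings (adjusted p = 0.0526).

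The neighbours of pal-1 went both ways. C38D4.7 rose with 0.99 ± 0.36 (SD, n = 3; limma adjusted p = 0.013), and metl-5 (C38D4.9), of a methyltransferase-like protein, fell with -0.80 ± 0.19 (limma adjusted p = 0.0249), less than pal-1 itself. C38D4.7 did not pass without preparation 3 (adjusted p = 0.0635), nor metl-5 without preparation 2 or 3 (0.201 and 0.0642). The other 4 neighbours did not pass. The DNA ligase gene lig-4 had 0.25 ± 0.14, bath-15 -0.48 ± 0.31, the kinase gene zyg-8 0.69 ± 0.71 and cest-12 -0.08 ± 0.27. Leaving out preparation 1 put zyg-8 past the threshold (mean 1.04, adjusted p = 0.0177).

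**Figure D3:**
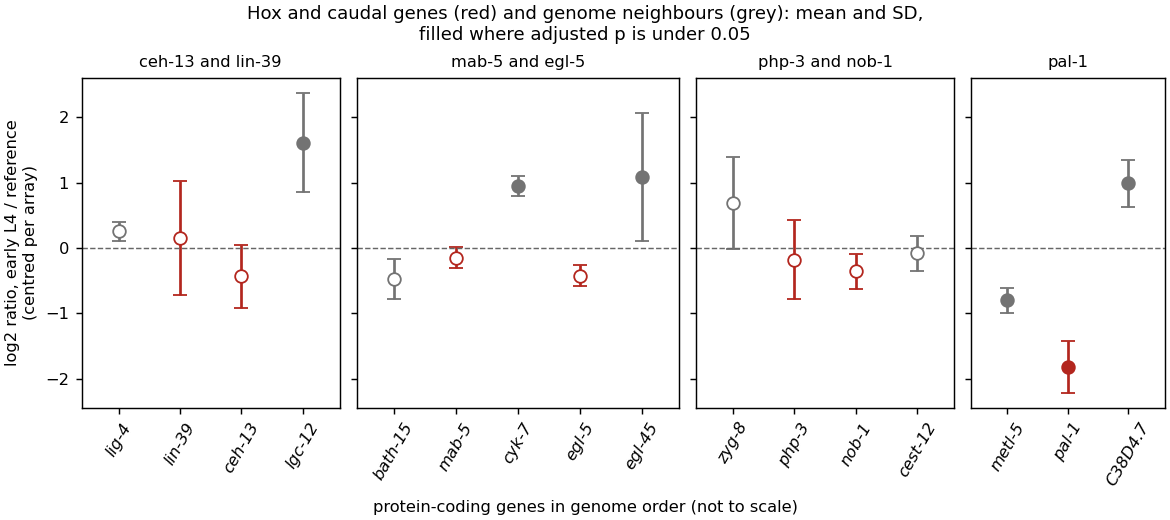
Mean log2 ratio (early L4 over reference, centred) with SD over 3 arrays for the Hox and caudal genes (red) and the adjacent or intervening protein-coding genes (grey), in genome order and not to scale; filled points have an adjusted p under 0.05. Filled neighbours such as lgc-12 at 1.61 and cyk-7 at 0.95 stand beside Hox genes with open points.

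Hox proteins bind DNA together with homeodomain partners of the Pbx and Meis classes, and all 5 such genes in the list were measured. ceh-20 (F31E3.1), the main Pbx-class partner, fell, with log2 ratios of -0.63, -0.86 and -0.67 and a mean of -0.72 ± 0.12 (SD, n = 3; limma adjusted p = 0.0365). ceh-40 (F17A2.5), of the same class, fell with -1.22, -0.25 and -0.90 and a mean of -0.79 ± 0.49 (adjusted p = 0.0456 in limma). Both calls were close to the threshold. ceh-20 did not pass without preparation 2 (adjusted p = 0.246) or 3 (0.142), nor ceh-40 without 1 (0.108) or 3 (0.152) or with trend and robust settings (0.0533). The third Pbx-class gene, ceh-60, had 0.39 ± 0.07, the Meis-class gene unc-62 had 0.33 ± 0.23, and psa-3, a Meis-related gene, had -0.18 ± 0.40; none of these 3 passed. The partners as a list held 2 lower and 0 higher of 5 (all genes 10.1% and 12.6%), with a median of -0.18. Without preparation 3 there were 0 lower in limma and the median turned to 0.03, and without preparation 1 or 2 there was 1 lower, with medians of -0.36 and -0.22.

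Chromatin regulators of the Polycomb and Trithorax kind keep Hox genes silent or active. Of 14 such genes, 0 passed in limma, against 22.7% of all genes. Their means lay between -0.64 for the Trithorax-class gene lin-59 and 0.52 for the methyltransferase gene set-16, with a median of -0.01. lin-59 and egl-27 (both chosen after their values were seen, as was set-16) were the 2 with an unadjusted p under 0.05, with -0.64 ± 0.47 and -0.63 ± 0.27 (SD, n = 3; limma adjusted p = 0.0916 and 0.0692). After quantile normalization 1 of the 14 fell, and without preparation 1 there was 1 higher and 0 lower.

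Wnt and Ras signals set lin-39 and mab-5 in their cells. Of 28 listed genes of these pathways 24 were measured, and of these 5 fell, 1 rose and 18 missed the threshold (median -0.06). Passing genes made up 22.7% of all genes tested, with 10.1% lower and 12.6% higher. The Wnt ligand gene egl-20, which switches on mab-5 in the migrating neuroblast, had -0.73, -0.86 and -2.12, a mean of -1.24 ± 0.77 (SD, n = 3; limma adjusted p = 0.0134), and did not pass without preparation 3 (0.11). mom-2, a Wnt ligand of the early embryo, had -1.36 ± 0.12 (limma adjusted p = 0.00164). The APC-related gene apr-1 had -0.83 ± 0.19, the Dishevelled gene dsh-2 -0.99 ± 0.32 and the EGF-like ligand gene lin-3 -0.72 ± 0.15. lit-1, the Nemo-like kinase gene, was the one that rose, with 0.83 ± 0.44. Calls of apr-1, dsh-2 and lin-3 were lost without preparation 2 or 3 and that of lit-1 without preparation 2, and the list then had 2 lower and 0 higher without preparation 2, and 1 lower and 1 higher without preparation 3. bar-1, the beta-catenin that maintains lin-39 in vulval precursor cells, did not pass, with 0.46 ± 0.24 (limma adjusted p = 0.168; chosen after its values were seen).

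Of 7 measured genes reported as targets of the larval Hox proteins, 1 rose and 6 missed the threshold (median 0.14). That stands beside 12.6% higher among all genes. psa-3 counts in this list too. The one that rose was spon-1, a spondin gene of the extracellular matrix, with 0.94, 0.93 and 0.85 and a mean of 0.91 ± 0.05 (SD, n = 3; limma adjusted p = 0.0125). Without preparation 2 or 3 its adjusted p was 0.0772 or 0.0502, which left 0 of the 7 past the threshold in limma, against 2 higher without preparation 1.

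Maternal regulators and embryonic targets of pal-1 were described apart. The list of 7 RNA-binding regulators of oocyte and embryo includes proteins that repress translation of maternal pal-1 RNA. Of these 7 genes 6 fell, against 10.1% of all genes, with a list median of -1.58. spn-4 had -2.22 ± 0.43, mex-6 -1.77 ± 0.22, pos-1 -1.71 ± 0.26, mex-1 -1.58 ± 0.28, mex-5 -1.37 ± 0.15 and mex-3, a KH-domain repressor of pal-1, -1.30 ± 0.22 (SD, n = 3 each; limma adjusted p between 0.000278 and 0.0025). All 6 passed under every alternative run. The one that did not pass was gld-1, which represses pal-1 in the gonad and had 0.64, -0.08 and -0.38, with a mean of 0.06 ± 0.52 (limma adjusted p = 0.897; chosen after its values were seen).

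Of 13 genes reported as targets of PAL-1 in the embryonic C lineage, 1 fell and 12 missed the threshold (median -0.36). Over all genes 10.1% fell. Without preparation 3, 2 of the 13 fell, and without preparation 1 the median was -0.19. tbx-9, a T-box gene, was the one that fell, with -1.18, -0.94 and -0.91 and a mean of -1.01 ± 0.15 (SD, n = 3; limma adjusted p = 0.00807). Of the 9 early embryo genes, end-3, an endoderm GATA factor gene, rose with 0.72, 1.94 and 0.35 (mean 1.00 ± 0.83, limma adjusted p = 0.0399), a call lost without preparation 1 (adjusted p = 0.0524) or 2 (0.372) and with trend and robust settings (0.0507). end-3 was also the 1 gene of this list with an unadjusted p under 0.05.

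**Figure D4:**
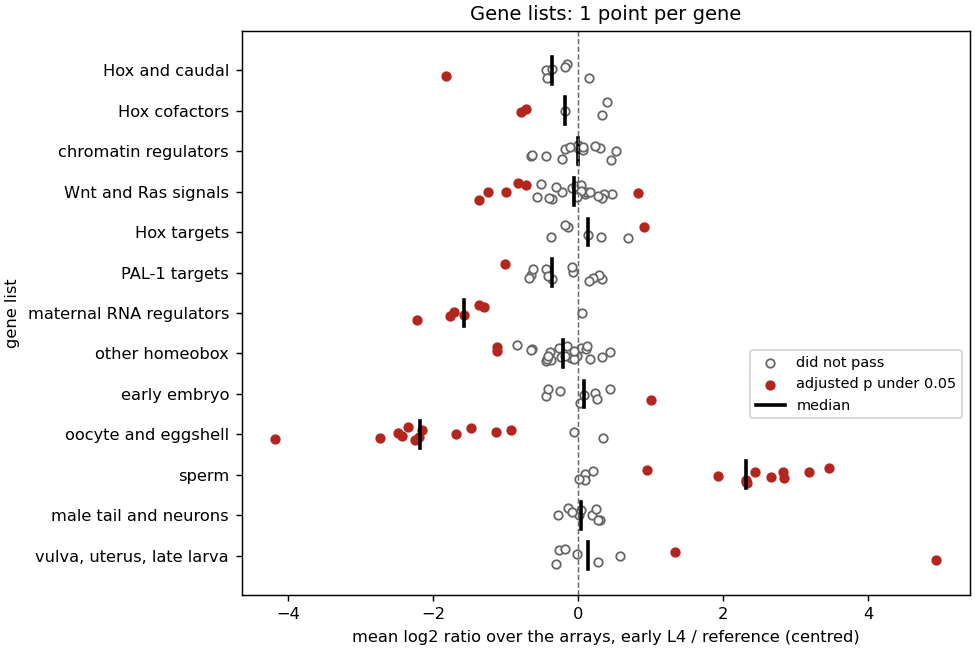
Mean log2 ratio (early L4 over reference, centred) of each measured gene in the lists around the Hox and caudal genes, with filled red points for an adjusted p under 0.05, open points otherwise and a black bar at the list median. The maternal RNA regulators (median -1.58) and the oocyte genes (median -2.18) lie to the left, with pal-1 at -1.82 alone at the left of its own list.

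Of 54 other homeobox genes of the ceh class, 8 fell and 0 rose (all genes 10.1% and 12.6%), with a median of -0.20. The class includes the partner genes ceh-20, ceh-40 and ceh-60 described above. The number lower was 10 after quantile normalization and 10 without preparation 1, but 5 with trend and robust settings, 3 without preparation 2 and 1 without preparation 3. Their means lay between -0.996 for ceh-49 and 0.39 for ceh-60, so none had a ratio as low as pal-1. Of 24 homeodomain genes outside that class, 2 fell, the POU gene unc-86 with -1.12 ± 0.56 and the zinc finger homeobox gene zag-1 with -1.11 ± 0.21 (SD, n = 3; limma adjusted p = 0.0116 and 0.00545), and 0 rose, with a median of -0.21. After quantile normalization, and also without preparation 3, 4 of the 24 fell. unc-62 and psa-3 count among the 24 too.

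The genes most like each Hox or caudal gene were sought by Euclidean distance of the 3 centred log2 ratios, among 9084 genes with a class name. With so few arrays this likeness describes only these preparations. For pal-1 only 6 genes lay within 0.25, and the nearest were grd-4 (distance 0.10) and cav-1 (0.20). For lin-39 they were cyn-4 (0.11) and cdd-2 (0.12), with 12 genes within 0.25, and for php-3 they were gld-3 (0.01) and srh-210 (0.12), with 13. For ceh-13 the nearest were col-121 (0.14) and vps-32.1 (0.15), with 17 within 0.25. The even genes had more company. srg-31 and chil-27 were nearest to mab-5 (0.04 and 0.05, 166 genes within 0.25), ref-2 and mes-3 to egl-5 (0.06 each, 102 genes), and rab-7 and sprr-2 to nob-1 (0.08 and 0.09, 74 genes).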

How the data were processed

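Per the labels, each of 3 samples was a 2-colour array. The log2 ratios deposited by the authors were used; the sources used here do not state the dyes, background correction or normalization. The values were recognised as log2 because their powers of 2 were whole thousandths for at least 99.96% of values per array (within 0.01 of a thousandth). Of 20000 probes, 15655 had 1 gene symbol, 198 several and 4147 none. Symbols were updated by gene number (15569) or symbol (86) through the RefSeq gene table of WBcel235. Probes of 1 gene were averaged, each array was centred on the median of all its probes, and genes with values on at least 2 arrays were tested two-sided against 0 with limma 3.58.1 (R 4.3.3), on 7.59 prior and 2 residual degrees of freedom. The reference channel enters each ratio, so its measurement noise is part of the tested spread. The reference has no replicates of its own in the test. Nothing states that preparations came from separate cultures, so the p-values reflect the spread of these arrays alone, and their number limits the precision. In a simulation of this comparison over 15159 genes, 12% of genes changed 2-fold and 96% changed 4-fold were recovered, with 5.26% of calls false. Only 200 genes were changed there, against 3444 called in the data, so its adjusted threshold was stricter and the shares are no estimate of power in the data.

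The 7 genes and the lists were chosen with earlier results of these data known. By rule, the text names those 7, all cofactors, genome neighbours, list members past the threshold (at most 3 from each end where there were over 6) and the 2 nearest genes by pattern; any other gene was picked with its values known. The alternatives tried were quantile normalization, uncentred ratios as deposited, trend and robust settings, each probe alone, genes on all 3 arrays, and leaving out each preparation. Running them on named genes outside the 7 was decided after seeing the data.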

Additional observations from a re-analysis of the deposited data

How the results depend on the processing

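pal-1 stayed lower and past the threshold under all 8 alternatives, with means between -1.94 and -1.60 and limma adjusted p between 1.88e-05 and 0.00166. It was the only one of the 7 genes called in each. Quantile normalization and the other settings that kept all arrays turned no direction among the 7. Leaving out 1 preparation gave lin-39 means of -0.29 to 0.58 and php-3 means of -0.46 to 0.14, so both changed sign, as did the uncalled psa-3 (-0.36 to 0.032) and cest-12 (-0.196 to 0.069). List medians with 1 preparation left out were -0.51 to -0.16 for the Hox and caudal genes, -0.16 to 0.13 for chromatin regulators, -0.17 to -0.06 for the signals and 0.03 to 0.27 for the Hox targets. The count of genes past the threshold, 3444, lay between 2423 (without preparation 2) and 4013 (quantile normalization). The ratios as deposited shifted the median gene by -0.02. Each of the 7 genes had a single probe, so testing probes apart left their means as they were. No pairing of samples between groups was possible because the series holds 1 group. Limits set by signal over background are unknown without spot brightness.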
